A study of Mus musculus with 6 samples.

Results

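The 10 genes described here belong to the BCL2 family, whose proteins decide at the outer membrane of the mitochondrion whether a cell lives or dies. They were taken by symbol from a table of 49671 mouse genes, and all 10 had a row and were abundant enough to be tested. RNA was measured in CD8 T cells from the spleens of OT-I mice, whose transgenic T cell receptor recognises the ovalbumin peptide SIINFEKL. The libraries fell into 2 groups of 3, one labelled CD73 KO and one labelled WT. CD73, the product of Nt5e, is a surface enzyme that makes adenosine from AMP. Cells of both genotypes were given peptide (10 ng/mL) every day for 5 days to bring on exhaustion. The cytokines IL-7 and IL-15 were present, each at 5 ng/mL. The cells were replated at 48 hours, and live cells were sorted for RNA. The labels name neither the knockout allele, the age of the mice nor the number of mice behind the libraries, so p-values measure only the spread between these libraries, which may be technical.

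BCL2-type survival proteins hold the pore former BAX in check. BH3-only proteins, named for the BH3 stretch with which they bind, either block the survival proteins or switch BAX on directly, and an active BAX opens the membrane and lets cytochrome c out. In T cells, IL-7 and IL-15 are known to keep BCL2 levels up, BIM is known to drive much of the contraction after activation, and MCL1 is needed at most stages of T cell life.

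The stretch that names the BH3-only group is also where survival and pore-forming members resemble it, so it is shown for the 7 members in which a search of the coding sequence found it. The pattern was leucine, any 3 residues, glycine or alanine, and aspartate. Capitals mark the codons for the leucine and the aspartate, and the bases are those of the GENCODE M21 transcripts, 5′ to 3′ on the coding strand (GRCm38, the assembly that mm10 names).
Bcl2 (chr1:106712575-106712613, minus strand): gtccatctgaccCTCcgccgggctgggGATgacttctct
Bcl2l1 (chr2:152829697-152829735, minus strand): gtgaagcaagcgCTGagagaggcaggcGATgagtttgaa
Mcl1 (chr3:95659424-95659462, plus strand): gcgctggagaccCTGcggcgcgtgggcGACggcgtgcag
Bax (chr7:45465997-45466035, minus strand): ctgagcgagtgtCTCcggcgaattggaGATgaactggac
Bcl2l11 (chr2:128147138-128147176, plus strand): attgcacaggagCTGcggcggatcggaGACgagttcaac
Bmf (chr2:118545100-118545138, minus strand): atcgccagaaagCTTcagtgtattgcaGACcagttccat
Bbc3 (chr7:16313761-16313799, plus strand): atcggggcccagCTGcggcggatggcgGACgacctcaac
Each of these 7 genes held the pattern once. Bcl2a1b and Bcl2a1d held no match to these letters, and Pmaip1 was not searched.

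Libraries differed in depth, from 6934150 to 19382950 counts, and a detection floor of 3 counts equals 0.160 to 0.427 CPM (each count scaled to a common library total with TMM factors). Of 7 T cell markers, all 7 were detected in each library, and their summed level ran from 4361 to 4757 CPM in CD73 KO, against from 4057 to 4270 CPM in WT. The defining B cell genes Ms4a1 and Pax5 and the myeloid genes Lyz2, Csf1r, C1qa and Spi1 had 0 counts in all 6 libraries. Other genes of those lists were seen, with Cd79b at 16 to 44 counts in CD73 KO and 4 to 19 counts in WT, and Cd14 at 6 to 10 counts in CD73 KO and 5 to 9 counts in WT. The summed level of 5 B cell markers ran from 1.64 to 2.45 CPM in CD73 KO and from 0.639 to 1.71 CPM in WT, and that of 6 myeloid markers from 0.638 to 0.963 CPM in CD73 KO and from 0.712 to 1.07 CPM in WT. The summed level of 4 neutrophil markers, of interest because neutrophils are rich in the Bcl2a1 product, ran from 0 to 0.0660 CPM in CD73 KO, against from 0 to 0.639 CPM in WT. The summed level of 4 NK markers, mostly Klrk1, which activated CD8 T cells also express, ran from 483 to 576 CPM in CD73 KO, against from 429 to 468 CPM in WT. The other genes of that list overlapped between the groups. Eomes had 283, 21 and 70 counts in CD73 KO and 387, 324 and 18 in WT. Klrb1c had 65, 23 and 14 counts in CD73 KO and 41, 36 and 7 in WT, and Ncr1 had 1 to 8 counts per library. The part of these marker differences in the results was not tested. Nt5e itself had 3.67, 8.45 and 8.47 CPM in the CD73 KO libraries, against 22.6, 5.22 and 37.4 CPM in WT replicates 1, 2 and 3. The library labelled WT replicate 2 thus lay inside the CD73 KO range, and differences are therefore also given without it.

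The question put to each gene was whether its level differed between the genotypes after 5 days of repeated peptide. By edgeR's quasi-likelihood test with Benjamini-Hochberg adjustment, 0 of the 10 members passed an adjusted p of 0.05, where 0.0572% of the 12242 tested genes passed. DESeq2 and limma-voom also called 0 of the 10. Without a filter on low counts edgeR called 3, Bmf, Bcl2l11 and Bax, where 1.4% of 21315 genes were called. At an unadjusted p under 0.05 there were 3 members, Bmf and Bcl2l11 with higher and Bax with lower levels in CD73 KO, against 9.64% of all tested genes (5.75% higher and 3.89% lower). The log2 fold change, CD73 KO over WT, was above 0 in 7 of the 10 members, against 52.3% of all tested genes. The median was 0.12 over the members and 0.01 over all genes. Without the library labelled WT replicate 2, 0 members passed the adjusted threshold (0.0317% of all genes) and 1, Bmf, had an unadjusted p under 0.05 (4.48% of all genes). Without CD73 KO replicate 2 that member was also Bmf alone. The targeted gene Nt5e did not pass either, with a log2 fold change of -1.67 ± 0.72 (edgeR, adjusted p = 0.534). Its value was -2.14 ± 0.37 without the library labelled WT replicate 2 (edgeR, adjusted p = 0.339). In bulk RNA, a change in the number of cells with a transcript and a change in its amount per cell cannot be told apart.

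**Figure D1:**
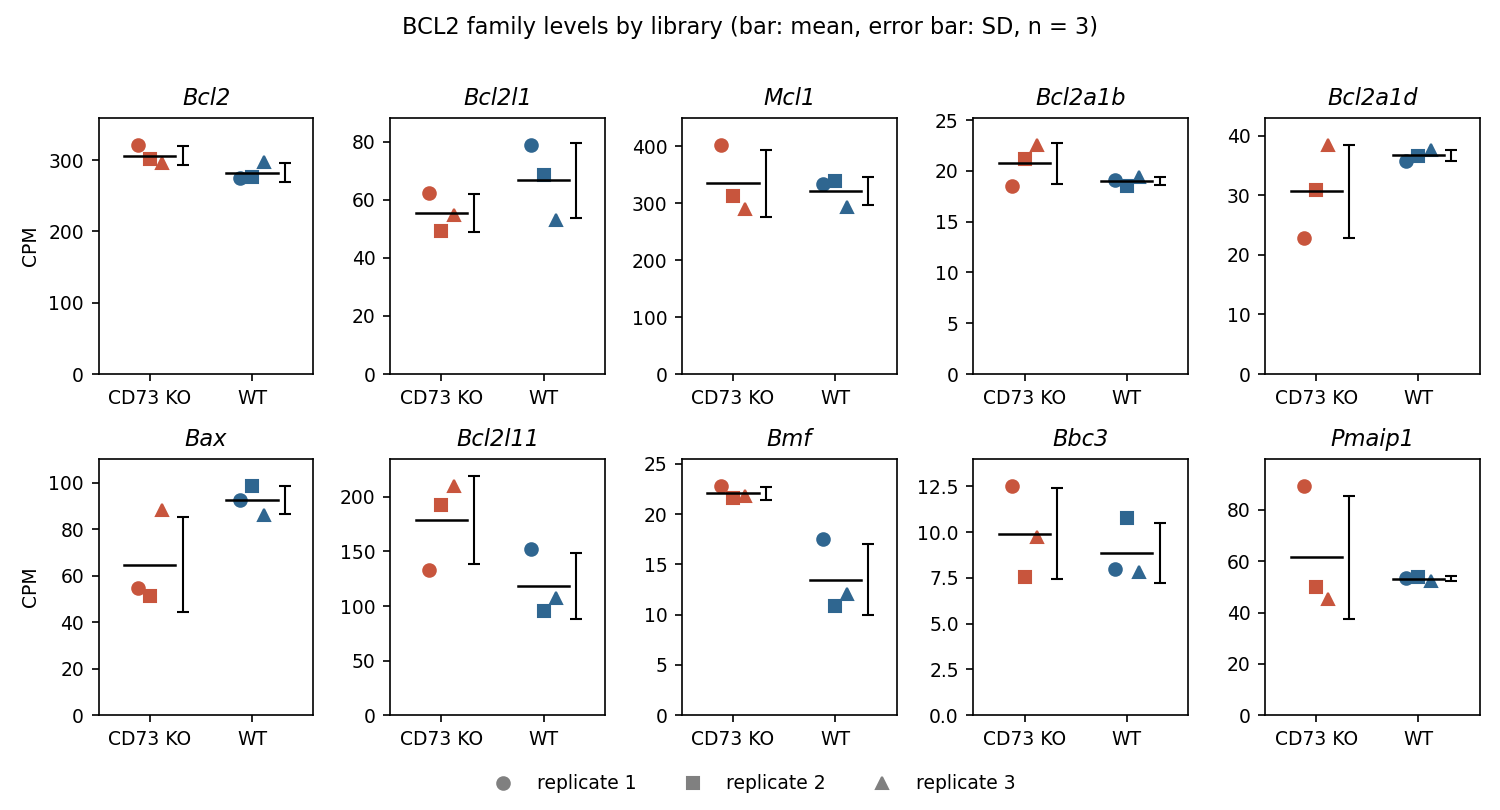
CPM of each of the 10 genes (vertical axes, from 0) in the 3 CD73 KO libraries on the left and the 3 WT libraries on the right of each panel, with the marker shape giving the replicate, a bar at the mean and an error bar of 1 SD. Bmf is the gene whose groups do not overlap, at 21.6 to 22.8 CPM in CD73 KO, against 10.9 to 17.5 CPM in WT.

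Among the BH3-only members, Bmf stood apart most. BMF binds the survival proteins and is known to be released from the cytoskeleton when cells lose their anchorage. Its gene (chromosome 2, 118528757 to 118549687, minus strand) had 22.8, 21.6 and 21.9 CPM in CD73 KO replicates 1, 2 and 3, against 17.5, 10.9 and 12.1 CPM in WT replicates 1, 2 and 3. The CD73 KO libraries lay close together and all above the WT libraries, a separation seen in 15.2% of all tested genes in either direction. Bmf averaged 22.1 ± 0.619 CPM in CD73 KO, against 13.5 ± 3.53 CPM in WT (SD, n = 3 each). The log2 fold change was 0.70 ± 0.19 (SE), or 1.62-fold, and did not pass edgeR's quasi-likelihood test (adjusted p = 0.326, unadjusted p = 0.00374, the 140th smallest of all genes). Without the library labelled WT replicate 2 it was 0.56 ± 0.21.

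Bcl2l11 encodes BIM, which binds all the main survival proteins and can activate BAX. The gene (chromosome 2, 128126038 to 128162547, plus strand) had 133, 193 and 209.7 CPM in CD73 KO replicates 1, 2 and 3, against 153, 95.9 and 107 CPM in WT replicates 1, 2 and 3. The groups overlapped, since CD73 KO replicate 1 was below WT replicate 1. The means were 179 ± 40.1 CPM in CD73 KO, against 118 ± 30.1 CPM in WT (SD, n = 3 each). The log2 fold change of 0.59 ± 0.21 did not pass (edgeR, adjusted p = 0.453, unadjusted p = 0.0221), and it was 0.45 ± 0.22 without the library labelled WT replicate 2.

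Bbc3 and Pmaip1 encode PUMA and NOXA, death proteins whose genes p53 is known to switch on, and NOXA is known to bind MCL1 and A1. Bbc3 (chromosome 7, 16308393 to 16318205) had 12.5, 7.53 and 9.72 CPM in CD73 KO, against 8.01, 10.8 and 7.83 CPM in WT. Pmaip1 (chromosome 18, 66458533 to 66465565) had 89.2, 49.8 and 45.3 CPM in CD73 KO, against 53.6, 53.9 and 52.1 CPM in WT. CD73 KO replicate 1 was the highest library for each of the pair, and the other CD73 KO libraries lay below every WT library for Pmaip1. The log2 fold changes were 0.16 ± 0.23 for Bbc3 (edgeR, adjusted p = 0.847) and 0.21 ± 0.23 for Pmaip1 (edgeR, adjusted p = 0.793). Without CD73 KO replicate 1 they turned to -0.054 and -0.17. Without the library labelled WT replicate 2 they were 0.32 and 0.22.

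Bax, the pore former among the members (chromosome 7, 45461697 to 45466898, minus strand), ran the other way. It had 54.9, 51.4 and 88.3 CPM in CD73 KO replicates 1, 2 and 3, against 92.9, 98.5 and 86.3 CPM in WT replicates 1, 2 and 3. CD73 KO replicates 1 and 2 were far below all WT libraries, and CD73 KO replicate 3 lay among them. The means were 64.8 ± 20.4 CPM in CD73 KO, against 92.6 ± 6.13 CPM in WT (SD, n = 3 each), with a log2 fold change of -0.52 ± 0.19 (edgeR, adjusted p = 0.453, unadjusted p = 0.0220). Without CD73 KO replicate 3 the log2 fold change was -0.80 (adjusted p = 0.0691), and without the library labelled WT replicate 2 it was -0.48 ± 0.23. Bak1, the other pore former of the family and no member of the chosen set, had 141, 138 and 145 CPM in CD73 KO, against 176, 180 and 127 CPM in WT (log2 fold change -0.19 ± 0.13, edgeR, adjusted p = 0.669).

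**Figure D2:**
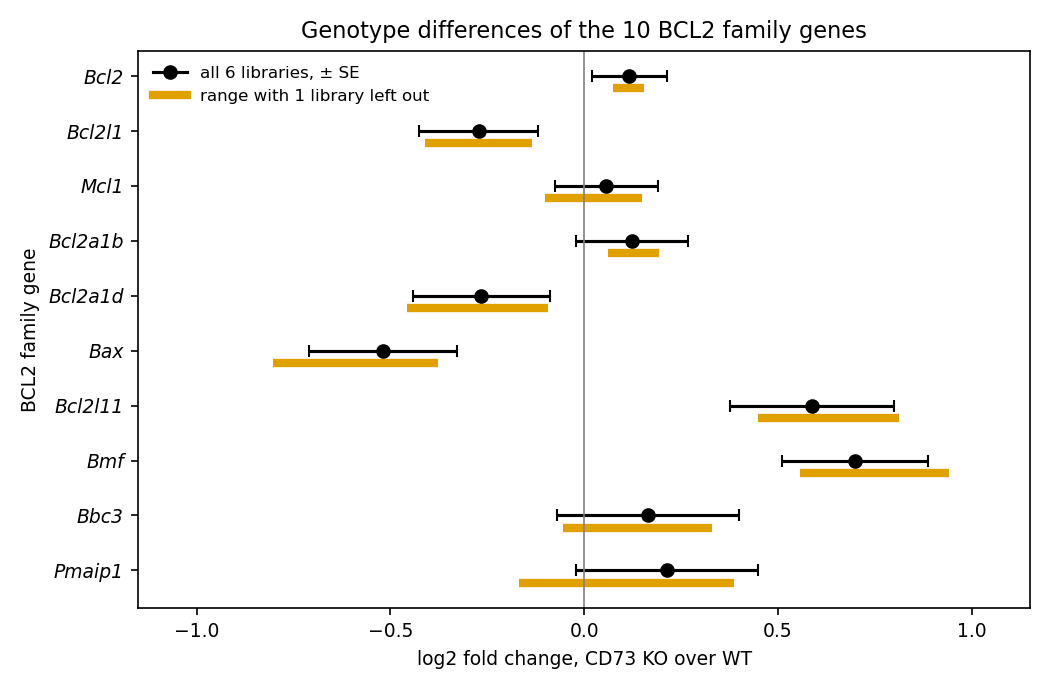
Log2 fold change of each of the 10 genes, CD73 KO over WT (horizontal axis), as a point with 1 SE from all 6 libraries and as a band from lowest to highest with 1 library left out at a time. The bands of Mcl1, Bbc3 and Pmaip1 cross 0, while that of Bmf runs from 0.56 to 0.94 and that of Bax from -0.80 to -0.38.

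Among the survival members, 0 had an unadjusted p under 0.05 by edgeR. Bcl2 (chromosome 1, 106538178 to 106714274, minus strand), whose product guards resting and memory T cells, had 321, 302 and 296 CPM in CD73 KO, against 274, 276 and 297 CPM in WT. The lowest CD73 KO library and the highest WT library were nearly level. The means were 306 ± 12.9 CPM in CD73 KO, against 282 ± 12.9 CPM in WT (SD, n = 3 each), with a log2 fold change of 0.12 ± 0.10 (edgeR, adjusted p = 0.709).

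Mcl1 (chromosome 3, 95658788 to 95663176), which encodes a short-lived survival protein, had 401, 313 and 289.7 CPM in CD73 KO, against 333, 338 and 293 CPM in WT. As with Pmaip1, CD73 KO replicate 1 was the highest library and the other CD73 KO libraries fell within or below the WT range. The log2 fold change was 0.06 ± 0.13 (edgeR, adjusted p = 0.907). Leaving out CD73 KO replicate 1 gave -0.10, and leaving out WT replicate 3 gave -0.0059.

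Bcl2l1 encodes BCL-XL, a survival protein that T cells are known to induce with costimulation (chromosome 2, 152780668 to 152831728, minus strand). It had 62.2, 49.3 and 54.7 CPM in CD73 KO, against 78.8, 68.4 and 53.0 CPM in WT. WT replicate 3 lay among the CD73 KO libraries. The means were 55.4 ± 6.52 CPM in CD73 KO, against 66.7 ± 13.0 CPM in WT (SD, n = 3 each), and the log2 fold change was -0.27 ± 0.15 (edgeR, adjusted p = 0.594), with -0.41 without WT replicate 3 and -0.14 without WT replicate 1. Leaving out the library labelled WT replicate 2 gave 0.09 for Bcl2, 0.09 for Mcl1 and -0.26 for Bcl2l1.

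Bcl2a1b and Bcl2a1d are copies of the gene for A1, a survival protein that T cells are known to make through NF-kB after receptor stimulation. Mice carry several such copies, and those described here flank Nt5e on the same side of chromosome 9. Bcl2a1d (88723285 to 88731914, minus strand) starts 351.2 kb beyond the end of Nt5e, the nearly silent copy Bcl2a1a 584.8 kb beyond it and Bcl2a1b (89199209 to 89207827, plus strand) 827.1 kb beyond it. Whether the sequence around Nt5e differs between the groups was not tested. The coding parts of Bcl2a1b and Bcl2a1d, 516 bases each without the stop codon, differ at 6 bases, an identity of 98.84%, and share a run of 217 bases. The 120 bases from the start codon hold 3 of the 6 differences, marked in capitals, and show how few bases tell a read of the one from a read of the other.
Bcl2a1b, coding bases 1 to 120: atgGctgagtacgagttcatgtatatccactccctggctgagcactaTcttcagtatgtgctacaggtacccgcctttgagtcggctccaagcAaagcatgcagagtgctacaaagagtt
Bcl2a1d, coding bases 1 to 120: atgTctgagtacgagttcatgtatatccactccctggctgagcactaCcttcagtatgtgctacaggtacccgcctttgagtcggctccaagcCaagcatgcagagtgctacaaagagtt
Reads that lie in a shared run may have been split between the copies or dropped, so the level of each copy is uncertain. In addition, 401 exon bases of Bcl2a1b (49.08%) are shared, on the same strand, with the gene model Gm29094, which had 0 to 5 counts. Reads there may also have been dropped, so that low count does not show how many reads Bcl2a1b lost.

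Bcl2a1b had 18.5, 21.2 and 22.5 CPM in CD73 KO, against 19.1, 18.5 and 19.4 CPM in WT. Bcl2a1d had 22.8, 30.8 and 38.4 CPM in CD73 KO, against 35.9, 36.6 and 37.6 CPM in WT. The WT libraries were nearly level for both copies, and the CD73 KO libraries were spread around them. The log2 fold changes were 0.12 ± 0.14 for Bcl2a1b (edgeR, adjusted p = 0.806) and -0.26 ± 0.18 for Bcl2a1d (edgeR, adjusted p = 0.648), and 0.10 and -0.27 without the library labelled WT replicate 2. Leaving out CD73 KO replicate 1 gave -0.09 for Bcl2a1d, and leaving out CD73 KO replicate 3 gave -0.46.

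Summed over the 4 annotated copies, A1 had 41.6, 52.2 and 61.2 CPM in CD73 KO, against 55.0, 55.4 and 56.9 CPM in WT. The sum does not depend on how reads were split between the copies, but reads that were dropped are missing from it too. The CD73 KO libraries lay on either side of the WT libraries, with a log2 fold change of -0.11 ± 0.14 (edgeR, adjusted p = 0.823). Without CD73 KO replicate 1 it was 0.017. Bcl2a1a had 6, 3 and 3 counts in CD73 KO and 0, 2 and 0 in WT, and Bcl2a1c had 0 counts in all 6 libraries.

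The split itself was looked at after the values had been seen. Bcl2a1b took 44.8% of the counts of both copies in CD73 KO replicate 1 (95% Wilson interval 41.4 to 48.4, 776 counts), 40.7% in CD73 KO replicate 2 (37.4 to 44.2, 788 counts) and 37.0% in CD73 KO replicate 3 (33.3 to 40.8, 633 counts). In WT it took 34.8% (31.4 to 38.4, 707 counts), 33.6% (29.7 to 37.8, 518 counts) and 34.0% (29.5 to 38.8, 400 counts). All 3 CD73 KO shares were above all 3 WT shares, although the intervals of CD73 KO replicates 2 and 3 overlap those of WT. The mean was 40.8 ± 3.94% in CD73 KO and 34.1 ± 0.612% in WT (SD, n = 3 each), a difference of 6.72 percentage points. An exact permutation test, two-sided, gave p = 0.1, the smallest that 3 against 3 libraries allow. Since the groups did not overlap, the test could give no other value and adds nothing to that separation. Of all tested genes, 15.2% separated the groups by level in either direction. The difference was 6.45 points without the library labelled WT replicate 2 and 4.72 points without CD73 KO replicate 1. The intervals cover counting error only.

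**Figure D3:**
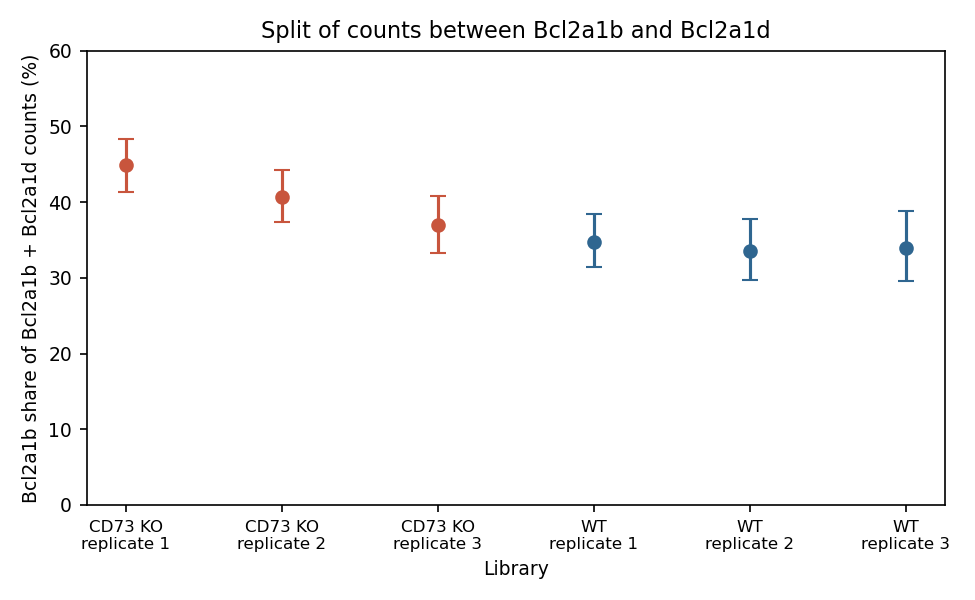
Share of Bcl2a1b in the summed counts of Bcl2a1b and Bcl2a1d (vertical axis, percent) in each library, CD73 KO on the left and WT on the right, with 95% Wilson intervals. The CD73 KO shares run from 37.0% to 44.8% and the WT shares from 33.6% to 34.8%.

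Levels of different genes were compared per length, in TPM from the merged exon length of each gene. Of the exon bases of Bax, 192 (12.18%) are shared, on the same strand, with the gene model Gm45808, which had 0 counts. Of those of Bcl2, 558 (6.094%) lie opposite the antisense gene D630008O14Rik, which had 0 to 9 counts. The effect of these overlaps, and of that of Bcl2a1b with Gm29094, on the levels was not tested. Mcl1 was the highest member, at 300.3 ± 45.3 TPM in CD73 KO and 289.0 ± 20.4 TPM in WT (SD, n = 3 each), and exceeded Bax in all 6 libraries. Over all 6 libraries the means then ran from Bax (153 TPM) through Bcl2a1d (120.2), Bcl2 (98.8), Bcl2a1b (74.9), Pmaip1 (64.3), Bcl2l11 (57.1) and Bcl2l1 (40.9) to Bbc3 (13.5) and Bmf (10.4). Of the 9 neighbouring pairs in that order, 3 kept it in all 6 libraries without overlap of their ranges, namely Mcl1 over Bax, Bcl2 over Bcl2a1b and Bcl2l1 over Bbc3. The other 6 pairs overlapped. Bmf was thus both the member with the smallest p and the least abundant of the 10. With the longest transcript in place of merged exons, Mcl1 and Bax stayed first and second, Bbc3 and Bmf stayed last, and the order between them became Bcl2 (94.3 TPM), Bcl2a1d (90.01), Bcl2l11 (68.2), Bcl2a1b (56.1), Bcl2l1 (54.7) and Pmaip1 (48.3).

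**Figure D4:**
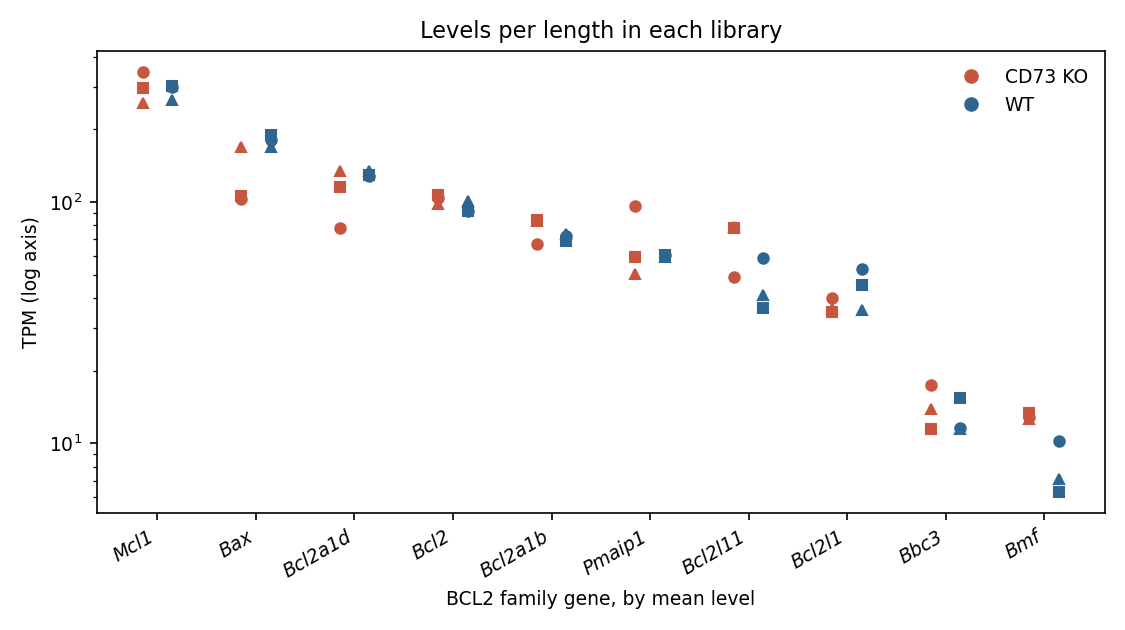
TPM of the 10 genes on a log axis, ordered by mean level, with CD73 KO libraries on the left and WT libraries on the right of each gene and the marker shape giving the replicate. Mcl1 is highest in every library, and Bbc3 and Bmf lie below the other 8 genes.

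The 5 survival members together had 636, 639 and 609 TPM in CD73 KO and 645, 637 and 610.2 TPM in WT, so these sums hardly differed between libraries. The 4 BH3-only members together had 176, 162 and 156 TPM in CD73 KO and 141, 118 and 119 TPM in WT. Each CD73 KO sum was above each WT sum, a separation that 15.2% of all tested genes showed singly in either direction. The sum holds Bmf and Bcl2l11, already seen to be higher, and no test was made on a sum over chosen genes. BH3-only members made up 19.2%, 17.9% and 16.7% of the TPM of all 10 members in CD73 KO and 14.6%, 12.5% and 13.2% in WT. In CD73 KO replicate 1 the high sum came with the high Pmaip1 level, and in CD73 KO replicates 2 and 3 with the high Bcl2l11 level. Bcl2l11 reached 47.4%, 72.9% and 80.8% of the TPM of Bcl2 in CD73 KO and 63.5%, 39.7% and 41.0% in WT, with overlap between the groups. With the longest transcript the ratios were 59.4%, 91.3% and 101.2% in CD73 KO and 79.5%, 49.7% and 51.4% in WT.

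The rest of the family gave 10 tested genes out of 16, of which 4 had higher and 6 lower levels in CD73 KO and 0 passed edgeR's adjusted threshold. Their median log2 fold change was -0.07, and -0.016 without CD73 KO replicate 3. Bcl2l14 alone had an unadjusted p under 0.05, with a log2 fold change of 1.29 ± 0.43 (edgeR, adjusted p = 0.400), but it rested on 20, 17 and 9 counts in CD73 KO and 4, 5 and 3 counts in WT. The survival gene Bcl2l2 had 0.14 ± 0.16. The BH3-only genes Bid, Bad and Bik had -0.15 ± 0.15, -0.10 ± 0.19 and -0.05 ± 0.29, and Bcl2l12 and Bcl2l13 had -0.08 ± 0.19 and -0.13 ± 0.11. Bnip3 and Bnip3l, mitophagy genes that hypoxia is known to induce, had 0.19 ± 0.52 and 0.17 ± 0.16. Without the library labelled WT replicate 2, Bnip3 had -0.03 and Bik 0.03. Bnip3 was high in CD73 KO replicate 2 (112.8 CPM, against 58.1 and 41.9 CPM in the other CD73 KO libraries) and in WT replicate 3 (104.4 CPM, against 41.1 and 43.5 CPM in the other WT libraries), so its spread lay within each genotype. Hrk, Bcl2l10 and Bcl2a1c had 0 counts, and Bok, Bcl2l15 and Bcl2a1a had 0 to 9 counts per library and were not tested.

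Downstream of the mitochondrion, the 9 genes of the apoptosome and caspases had 7 lower and 2 higher values in CD73 KO, with 0 past edgeR's adjusted threshold, 1 with an unadjusted p under 0.05 and a median log2 fold change of -0.06 (-0.12 without CD73 KO replicate 1 and -0.11 if WT replicate 3 is left out). Cycs, the gene of cytochrome c, had a log2 fold change of -0.24 ± 0.12, and Casp2 had 0.09 ± 0.11. Over all lists beside the members, the rest of the family included, 64 genes were tested. Of these, 6 had an unadjusted p under 0.05 by edgeR, against 9.64% of all tested genes. Higher values in CD73 KO were seen in 29 of the 64, against 52.3% of all tested genes.

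Among the 7 inhibitors of apoptosis and their antagonists, 4 had higher values in CD73 KO, 0 passed edgeR's adjusted threshold, 2 had an unadjusted p under 0.05 and the median was 0.22 (0.12 without the library labelled WT replicate 2). Leaving out CD73 KO replicate 2 gave a median of 0.08, and leaving out CD73 KO replicate 3 gave 0.33. Those past the unadjusted threshold, which 9.64% of all tested genes passed, were Birc2 and Birc3. They encode ubiquitin ligases of the NF-kB and TNF receptor pathways that are known as cIAP1 and cIAP2. Birc2 had 105.3, 76.8 and 78.0 CPM in CD73 KO, against 58.8, 60.7 and 70.9 CPM in WT (0.45 ± 0.15, edgeR, adjusted p = 0.379). Birc3 had 56.5, 52.0 and 46.5 CPM in CD73 KO, against 40.9, 42.5 and 40.7 CPM in WT (0.32 ± 0.12, edgeR, adjusted p = 0.446). Both separated the groups without overlap, as did 15.2% of all tested genes in either direction. The antagonists Htra2 and Diablo had -0.10 ± 0.17 and -0.06 ± 0.13.

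The death receptor arm had 5 of 9 genes with higher values, 0 with an unadjusted p under 0.05 by edgeR and a median of 0.14. That median was 0.066 without CD73 KO replicate 2, 0.011 without CD73 KO replicate 3 and 0.045 with limma-voom. Casp8 and its brake Cflar had 0.22 ± 0.13 and 0.29 ± 0.19, and Tnfrsf10b and Tradd had -0.31 ± 0.21 and -0.07 ± 0.16. Of the 7 genes of the outer membrane and of mitochondrial fission, 6 had lower values, 0 had an unadjusted p under 0.05 by edgeR and the median was -0.11. The channel genes Vdac1 and Vdac3 had -0.21 ± 0.11 and -0.19 ± 0.11, and Fis1 had 0.01 ± 0.12.

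**Figure D5:**
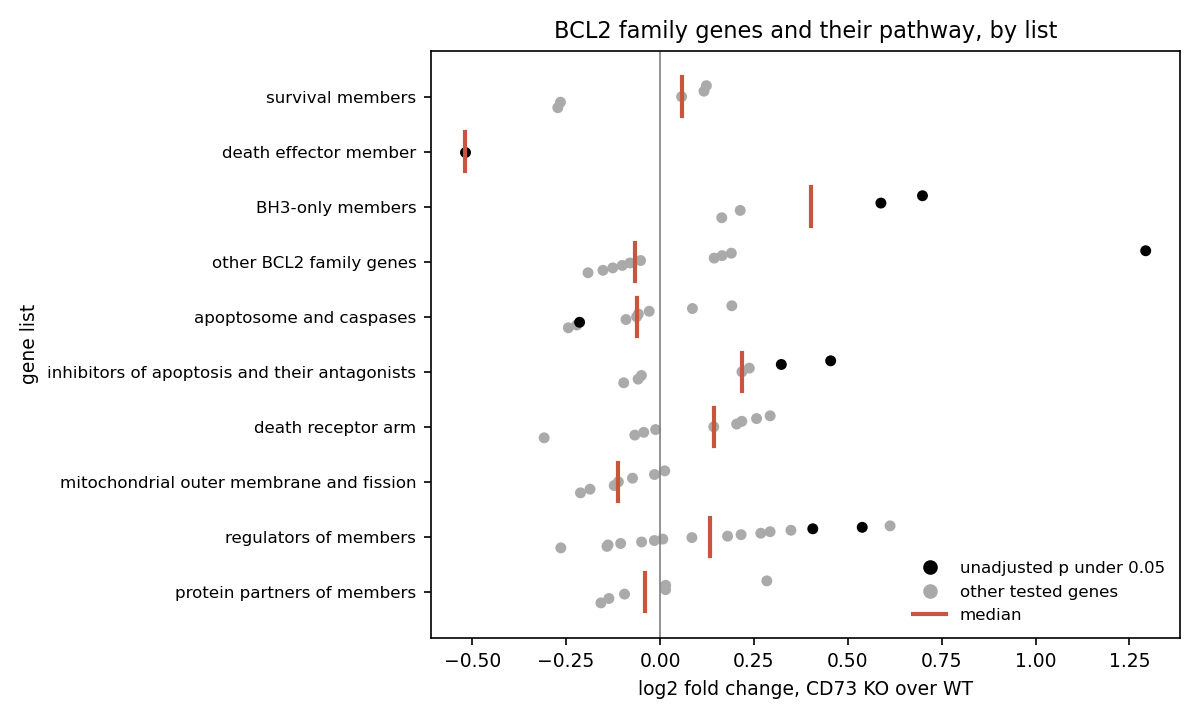
Log2 fold change, CD73 KO over WT, of each tested gene (points, black where the unadjusted p is under 0.05), with 1 row per list and a bar at the median of the list. The median of the 4 BH3-only members is 0.40, and with 1 library left out at a time it runs from 0.31 to 0.51. The tested BH3-only genes outside the members, Bid, Bad and Bik, go the other way (-0.15, -0.10 and -0.05). They are counted with the other family genes. The medians of the 7 pathway lists beside the members lie between -0.11 and 0.22.

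Upstream, 16 regulators known to act on the members had 10 higher values, 0 past edgeR's adjusted threshold, 2 with an unadjusted p under 0.05 and a median of 0.13 (0.062 without CD73 KO replicate 1 and 0.087 if CD73 KO replicate 2 is left out). Of all tested genes, 9.64% had an unadjusted p under 0.05 by edgeR. Foxo1, a transcription factor known to drive Bcl2l11 in lymphocytes, had 108, 112 and 91.6 CPM in CD73 KO, against 81.3, 65.7 and 88.3 CPM in WT (0.41 ± 0.13, edgeR, adjusted p = 0.392, and 0.29 without the library labelled WT replicate 2). Myc had 202, 196 and 172 CPM in CD73 KO, against 105, 113 and 176 CPM in WT (0.54 ± 0.18, edgeR, adjusted p = 0.418, and 0.44 without that library). The IL-15 receptor chain Il2rb had -0.26 ± 0.15 and Nfkb1 had -0.14 ± 0.10. Among 6 genes for partners that place the proteins or set their stability, 3 had higher values, 0 had an unadjusted p under 0.05 by edgeR and the median was -0.04, which turned to 0.038 without CD73 KO replicate 3 and to 0.018 without WT replicate 1. Fbxw7 and Huwe1, ubiquitin ligases known to mark MCL1 for destruction, had 0.28 ± 0.15 and 0.02 ± 0.13. Dynll1 and Dynll2, the dynein light chains that hold BIM and BMF, had -0.16 ± 0.11 and -0.14 ± 0.10.

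After these values were seen, the RefSeq start-site windows of the members were searched on both strands for the FOXO motif GTAAACA. A window ran from 250 bases before to 50 after a start (GRCm38.p6). Of 16 windows of 9 members, 2 held it, in Bcl2l11 and Bbc3, against 3.65% of 32851 windows of all genes. No Bmf window held these letters. The matches are shown with the motif in capitals, on the strand of the gene.
Bcl2l11 (chr2:128125788-128125842, plus strand): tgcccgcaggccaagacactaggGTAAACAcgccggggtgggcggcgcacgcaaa
Bbc3 (chr7:16310069-16310125, plus strand): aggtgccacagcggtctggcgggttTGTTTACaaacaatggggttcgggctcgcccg
A match of letters is a description and does not show that a factor bound there. Whether Foxo1 acted on any member in these cells was not tested.

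As a description that rests on few libraries of unequal depth, genes were listed whose library pattern was most like that of 4 members. They were ranked by Pearson's r of log2 CPM over the 6 libraries among 9197 other genes. For Bmf they were Notch1 (r = 0.993), Synpo (0.989) and Ikzf2 (0.988), the last at 80.9 ± 7.70 CPM in CD73 KO, against 36.6 ± 23.2 CPM in WT (SD, n = 3 each). For Bcl2l11 they were Ccdc77 (0.984), Retreg3 (0.976) and Incenp (0.970). For Mcl1 they were Srsf5 (0.999), Rab11fip2 (0.999) and Rbm18 (0.998), and for Bcl2 they were Znfx1 (0.998), Gstp3 (0.993) and Cpsf7 (0.989).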

How the data were processed

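Per the submitters' processing notes, reads were handled with fastp, HISAT2 and featureCounts on mm10. The sources used here do not give versions, the annotation release or the strand setting. It is therefore not known whether reads of a gene and an antisense partner were told apart. The authors deposited a table of unnormalised read counts with 1 row per Ensembl gene and 1 column per library. Symbols came from a table of gene names (49326 of 49671 identifiers matched). Positions, exon lengths and coding sequences came from GENCODE M21.

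Genes were kept with filterByExpr (minimum count 10, minimum total count 15), and genotypes were compared in R 4.3.3 with edgeR 4.0.16 (TMM factors, quasi-likelihood F-test, legacy fit, robust dispersion). Benjamini-Hochberg adjustment covered the 12242 tested genes, and each SE was taken from the fold change and its F statistic. Alternatives were RLE factors, library size alone, no filter, a minimum of 1 CPM in 3 libraries, dispersions fitted without robust estimation or by the newer edgeR 4 method, a replicate block, DESeq2 1.42.0, limma-voom (limma 3.58.1), thinning to the smallest total and each library left out.

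The members, lists and tests were chosen with earlier results of these data known. Named genes were the members, Nt5e, the other family genes with a count, from each list the 2 genes of smallest p in each direction, and for Bcl2, Mcl1, Bcl2l11 and Bmf the 3 most alike genes with a mean of at least 5 CPM. Bcl2a1a, the gene models that overlap members and the markers were named beside them. The split of the Bcl2a1 copies and the FOXO search were added after values were seen. Some genes that this rule names in the list of the apoptosome and caspases are not reported here.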

Additional observations from a re-analysis of the deposited data

How the results depend on the processing

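Of the 16 alternatives, 15 called 0 members at an adjusted p under 0.05. Without a filter on low counts edgeR called 3 members, Bmf (adjusted p = 0.0203), Bcl2l11 (adjusted p = 0.00117) and Bax (adjusted p = 0.0117), together with the pathway genes Birc2 and Myc, with 298 of 21315 genes called (1.4%), against 7 in the reported fit. The cause was not tested. DESeq2 called 99 genes, 0 of them members. Leaving out a library gave 4 to 8 called genes, 0 called members and 1 to 3 members with an unadjusted p under 0.05. The direction turned without CD73 KO replicate 1 for Mcl1 (-0.10), Bbc3 (-0.054), Pmaip1 (-0.17) and the summed Bcl2a1 copies (0.017), and without WT replicate 3 for Mcl1 (-0.0059). With a library left out the values ran from -0.10 to 0.15 for Mcl1, -0.054 to 0.33 for Bbc3, -0.17 to 0.39 for Pmaip1 and -0.25 to 0.017 for the summed copies. No direction turned for the other 7 members. Bmf kept its sign and an unadjusted p under 0.05 in all 16 alternatives, with log2 fold changes from 0.56 to 0.94. Libraries of the same replicate number in the 2 genotypes had correlations of their deviations of 0.15, -0.17 and 0.01. With 3 libraries per group, these values cannot decide whether the numbers pair the libraries. With the replicate block 2 members had an unadjusted p under 0.05, 5 genes were called and the summed Bcl2a1 copies had a log2 fold change of -0.13, and the block changed no call of a member. Depth limits what can be seen of Bcl2a1a, Bok, Bcl2l15 and Bcl2l14. The counts of Bcl2a1a, Bok and Bcl2l15 ran from 0 to 9 per library. Bcl2l14 had 4, 5 and 3 counts in WT, near the floor of 3, and 20, 17 and 9 counts in CD73 KO.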
